A study of Mus musculus with 60 samples.

Results

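The bulk transcriptome of the medial prefrontal cortex (mPFC) was compared between the SA:ANH and NS groups of mice. All mice were DBA2/J and carried GFP-L10a, in which green fluorescent protein tags a protein of the large ribosomal subunit. The 12 libraries of the comparison were chosen by their labels, as the 6 Input libraries of each group, out of 60 libraries in the series. Of 55414 genes in the deposited table, 18170 passed a filter on low counts and were tested. The series' text states that mice went through social defeat stress for 5 days and that 5 groups were set up. The labels name these groups SA:ANH, SA, ANH, RES and NS, use the word subtype in the titles of all but NS, and neither spell out the names nor give the stress history of each one. Input libraries carry bulk mPFC RNA with no antibody, and a matched set of IP libraries holds RNA pulled down with an antibody to GFP and labelled as neurons that project to the aPVT. Both fractions were made with a low-input kit that amplifies full-length cDNA. The labels give no age, sex, promoter or virus for the transgene. They also do not say whether the 6 libraries of a group came from 6 mice, so the p-values below measure only how these libraries varied, and that variation may be technical.

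The mPFC weighs threat and reward and shows lasting changes after social defeat in mice. Its neurons respond to synaptic activity by transcribing immediate early genes, which encode transcription factors such as Fos and Npas4 and synaptic regulators such as Arc. A slower set of activity-induced genes follows, encoding secreted peptides and modifiers of synapses. Other programmes bear on a stress comparison: the circadian clock, in which factors that bind E-box DNA drive repressors and output genes, and the glucocorticoid response, in which the hormone receptor induces genes such as Fkbp5.

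Total estimated counts were 20566990 to 25331881 per SA:ANH library and 19116949 to 24169436 per NS library. Cortical markers were present in all 12 libraries. The glutamate transporter gene Slc17a7 lay at 1192 to 1344 CPM (counts scaled to a common library size) in SA:ANH and 1163 to 1284 CPM in NS, and the GABA synthesis gene Gad1 at 206 to 237 CPM in SA:ANH and 221 to 256 CPM in NS. SA:ANH libraries held fewer genes with at least 1 count (21376 to 22215) than NS libraries (22275 to 23096), and the groups did not overlap (two-sided exact permutation test, p = 0.00216, the smallest that 6 against 6 libraries can give; 0.00541 adjusted over 5 library measures). SA:ANH libraries 1 and 2 stood apart from the other 4 on the first principal component of the 30 Input libraries, which held 8.84% of the variance. Their scores were 46.5 and 43.2, those of the other 4 SA:ANH libraries 5.07 to 18.2, and those of NS -39.2 to -18.5. Counts and calls that changed without libraries 1 and 2 are therefore given beside the results.

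Between SA:ANH and NS, 1026 of 18170 genes passed an adjusted p of 0.05 in edgeR's quasi-likelihood test, which is 5.65%. Of these, 462 (2.54%) rose in SA:ANH and 564 (3.1%) fell. Rises were small: the median log2 fold change of the 462 was 0.22, and 11 reached a log2 fold change of 1. Falls were larger, with a median of -0.77 and 205 genes at or below a log2 fold change of -1, while the median over all genes tested was 0.004. Among protein-coding genes 454 rose and 221 fell of 14883, and among processed pseudogenes, which are reverse-transcribed gene copies, 1 rose and 291 fell of 1033. Of 1106 processed pseudogenes tested without SA:ANH libraries 1 and 2, 24 fell and 1 rose. The count of calls rested on few libraries. It was 529 without SA:ANH library 1, 565 without SA:ANH library 2, 629 without NS library 4, and 207 without SA:ANH libraries 1 and 2 together, with 101 higher and 106 lower of 18755 genes tested. Of those 207, 199 were also among the 1026. In bulk tissue, fewer cells of a type and less RNA per cell cannot be told apart, and this holds for every gene below.

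**Figure D1:**
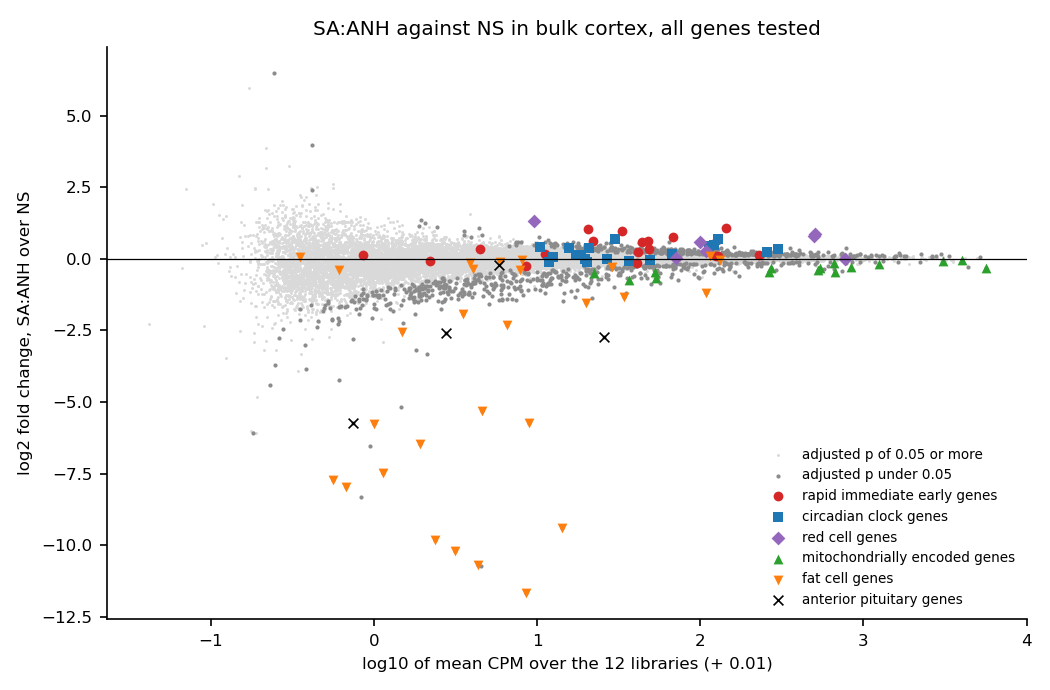
Each point is 1 of the 18170 genes tested, with its mean level in CPM over the 12 libraries on a log10 axis against its log2 fold change, SA:ANH over NS. The 10 immediate early, 7 clock and 4 red cell genes that passed lie above 0, all 15 mitochondrially encoded genes lie below 0, and so do the 18 fat cell and 3 pituitary genes that passed; the fitted values of genes with no count in SA:ANH depend on the fit's prior count.

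Rapid immediate early genes were higher in SA:ANH. Of 20 listed genes 19 were tested, and 10 rose while 0 fell, against 2.54% and 3.1% of all genes. The median log2 fold change of the 19 was 0.33. Without SA:ANH libraries 1 and 2, 9 of 20 tested rose and 0 fell, where 0.539% of all genes rose. The summed level of the list was 1275 to 1356 CPM in SA:ANH and 960 to 1002 CPM in NS libraries, with no overlap. Of the 19 genes, 9 had every SA:ANH library above every NS library, as did 1.18% of all genes tested.

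Arc, whose product regulates AMPA receptor traffic at synapses, had 167, 194 and 218 CPM (lowest, median and highest library) in SA:ANH and 88.8, 93.1 and 98.2 CPM in NS. Every SA:ANH library was above every NS library, and the log2 fold change was 1.06 ± 0.06 (standard error; adjusted p = 1.65e-14). Npas4, a neuronal activity-dependent transcription factor, had 23.6, 27.6 and 32.3 CPM in SA:ANH and 9.29, 13.5 and 16.8 CPM in NS. The groups again did not overlap, at a log2 fold change of 1.03 ± 0.12 (adjusted p = 9.19e-08). Fos, the transcription factor most used as a marker of recent neuronal activity, had 35.8, 46.5 and 49.4 CPM in SA:ANH and 18.3, 21.4 and 29.6 CPM in NS. The groups did not overlap, its log2 fold change was 0.97 ± 0.11 (adjusted p = 4.66e-08), and SA:ANH libraries 2 and 6 were its lowest at 35.8 and 36.5 CPM.

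Dusp1, a phosphatase that turns off MAP kinases, had 77.3, 85.8 and 94.8 CPM in SA:ANH and 46.8, 50.6 and 53.5 CPM in NS (log2 fold change 0.77 ± 0.06, adjusted p = 1.08e-11). Junb, a partner of Fos in the AP-1 complex, had 146, 153 and 164 CPM in SA:ANH and 90.6, 97.0 and 108 CPM in NS, a log2 fold change of 0.67 ± 0.05 (adjusted p = 7.89e-13). Neither gene's groups overlapped. Smaller rises were found for Ier2 (0.64), the nuclear receptor gene Nr4a1 (0.62), the antiproliferative gene Btg2 (0.59), Egr4 (0.33) and the stress sensor gene Gadd45g (0.23). Gadd45g was the only one of the 10 that lost its call without SA:ANH libraries 1 and 2 (log2 fold change 0.21, adjusted p = 0.212). The other 9 listed genes did not pass: Egr1 had a log2 fold change of 0.13 (adjusted p = 0.0519), Jun 0.09 (adjusted p = 0.424) and the low gene Fosb -0.08 (adjusted p = 0.916).

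**Figure D2:**
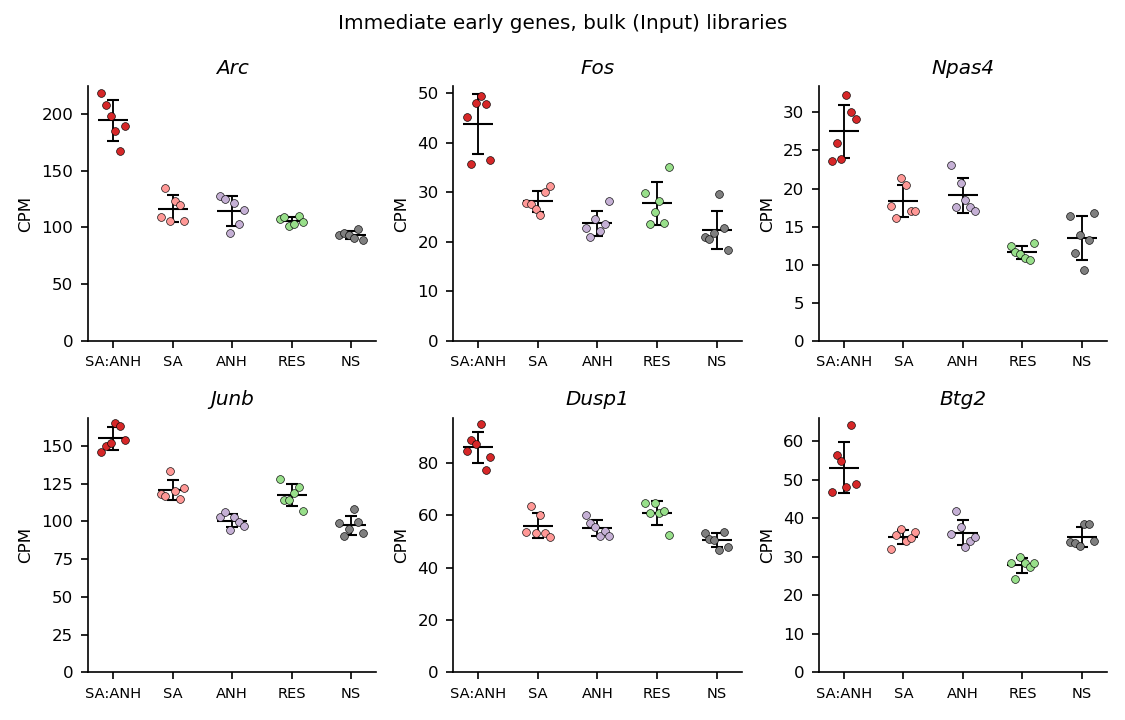
Level in CPM of 6 immediate early genes in each Input library of the 5 groups; each point is 1 library and bars give the mean and SD of 6. All 6 SA:ANH points lie above all 6 NS points in each panel, from Arc at 167 to 218 CPM in SA:ANH and 88.8 to 98.2 CPM in NS to Btg2 at 46.8 to 64.1 CPM in SA:ANH and 32.9 to 38.5 CPM in NS.

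Immediate early genes were also higher in SA:ANH than in the other subtypes. Against SA, which gave 643 calls over all genes (3.54%; 1.58% higher and 1.96% lower), 9 of the 19 immediate early genes rose and 0 fell. Against ANH, with 298 calls (1.64%; 0.693% higher and 0.947% lower), 10 rose and 0 fell. Against RES, with 126 calls (0.693%; 0.319% higher and 0.374% lower), 9 rose and 1 fell. The other subtypes also differed from the same NS libraries. In SA against NS, 7 immediate early genes rose and 0 fell, where 2.83% of all genes passed (1.23% higher, 1.6% lower). In ANH against NS, 3 rose, where 2.62% of all genes passed (1.57% higher, 1.05% lower). In RES against NS, 5 rose and 2 fell, where 3.23% of all genes passed (1.96% higher, 1.27% lower). Over all 18170 genes, 9 passed as higher in SA:ANH than in each of SA, ANH, RES and NS, and 0 passed as lower in all 4, where the 4 comparisons share the SA:ANH libraries. These 9 were Arc, Fos, Npas4, Junb, Dusp1, Btg2, Ier2, Gadd45g and Dusp6, a phosphatase of ERK kinases. They were picked out after their values were seen. Without SA:ANH libraries 1 and 2 the count was 6, namely Arc, Btg2, Dusp1, Fos, Junb and Npas4. Arc had a median of 194 CPM in SA:ANH, 115 in SA, 118 in ANH, 106 in RES and 93.1 in NS. The lowest SA:ANH library (167 CPM) exceeded the highest of any other group (135 CPM, in SA). Npas4 had a median of 27.6 CPM in SA:ANH, 17.4 in SA, 18.1 in ANH, 11.5 in RES and 13.5 in NS. In order of their medians, each of the 4 groups below SA:ANH overlapped with the next. Nr4a1 did not follow that pattern in RES, where it had a median of 52.5 CPM, against 57.7 CPM in SA:ANH, with a log2 fold change of SA:ANH over RES of 0.14 (adjusted p = 0.340).

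The upstream DNA of genes that rose was read as a description. The 14 genes that rose from the lists of immediate early and activity-induced genes were looked up by symbol among RefSeq promoters of GRCm38.p6, and 12 were found. The 250 bases before the start were searched on both strands for the cAMP response element TGACGTCA, its core TGACG, which also lies inside each full element, the E-box CACGTG, the D-box TTATGTAA and the CArG box. The full element was found in 4 of the 12 (Dusp1, Btg2, Arl4d and Plk2), against 1.77% of 27025 genes with a promoter in the table. The core was found in 10 of 12, against 19.8% of all genes. The E-box was in 3 of 12, against 6.86%. Neither the D-box nor the CArG box was found in this window in any of the 12, against 0.977% and 1.62% of all genes. Of the 7 clock genes that rose, 6 were found in the table and 3 of these (Per1, Ciart and Tef) held the E-box. A match describes the letters in the window and is no measure of binding. Listed genes that did not rise were not counted apart, so these counts cannot separate the rise from membership of the lists.

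Shown 5′ to 3′ on each gene's own strand are the windows of 4 immediate early genes that rose by 0.59 to 1.03 on the log2 scale and of 2 clock genes, with the core in either orientation (TGACG or CGTCA) and the E-box in capitals. They lie at chr12:85473640-85473889 on the plus strand (Fos), chr19:4989972-4990221 on the minus strand (Npas4), chr17:26508473-26508722 on the minus strand (Dusp1), chr1:134079156-134079405 on the minus strand (Btg2), chr11:69098699-69098948 on the plus strand (Per1) and chr3:95882229-95882478 on the minus strand (Ciart).
Fos: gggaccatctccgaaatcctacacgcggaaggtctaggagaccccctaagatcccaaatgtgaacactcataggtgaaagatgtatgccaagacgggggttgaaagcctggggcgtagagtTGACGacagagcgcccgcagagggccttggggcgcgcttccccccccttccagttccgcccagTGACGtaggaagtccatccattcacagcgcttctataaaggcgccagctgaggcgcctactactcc
Npas4: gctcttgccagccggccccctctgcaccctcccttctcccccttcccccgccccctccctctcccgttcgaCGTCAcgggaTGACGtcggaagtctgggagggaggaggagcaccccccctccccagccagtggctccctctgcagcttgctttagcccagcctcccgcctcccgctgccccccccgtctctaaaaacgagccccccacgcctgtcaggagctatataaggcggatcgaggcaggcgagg
Dusp1: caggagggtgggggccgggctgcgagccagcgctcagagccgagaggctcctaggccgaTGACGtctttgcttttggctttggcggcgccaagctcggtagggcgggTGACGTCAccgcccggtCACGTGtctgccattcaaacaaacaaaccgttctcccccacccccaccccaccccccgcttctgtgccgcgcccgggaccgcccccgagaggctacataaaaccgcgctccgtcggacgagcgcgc
Btg2: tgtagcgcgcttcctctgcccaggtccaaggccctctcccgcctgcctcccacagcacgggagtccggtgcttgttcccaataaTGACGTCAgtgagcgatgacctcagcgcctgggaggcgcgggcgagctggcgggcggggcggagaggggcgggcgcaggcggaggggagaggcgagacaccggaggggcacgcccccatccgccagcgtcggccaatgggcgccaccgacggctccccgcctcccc
Per1: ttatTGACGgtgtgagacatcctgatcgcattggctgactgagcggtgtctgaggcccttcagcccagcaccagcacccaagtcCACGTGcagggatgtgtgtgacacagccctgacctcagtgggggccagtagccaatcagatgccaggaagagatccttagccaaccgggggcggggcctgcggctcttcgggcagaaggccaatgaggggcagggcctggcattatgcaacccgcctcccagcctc
Ciart: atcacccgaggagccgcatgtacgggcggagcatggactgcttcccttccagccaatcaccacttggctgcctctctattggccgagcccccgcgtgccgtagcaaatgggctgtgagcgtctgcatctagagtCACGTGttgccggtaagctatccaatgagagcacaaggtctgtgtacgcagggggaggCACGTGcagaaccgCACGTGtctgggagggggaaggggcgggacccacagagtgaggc
In Fos the core begins 129 and 66 bases before the start. In Dusp1 the full element begins 143 bases before the start and is followed by an E-box at 126 bases, and in Btg2 the full element begins at 166 bases. Npas4 holds 2 cores in opposite orientation, at 179 and 169 bases, and Ciart holds 3 E-boxes, at 116, 58 and 44 bases.

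The slower activity-induced genes moved in both directions. Of 24 tested, 4 rose and 5 fell, where 2.54% of all genes rose and 3.1% fell, with a median log2 fold change of -0.13. Scg2 (secretogranin II, a peptide precursor of dense-core vesicles) had 205, 213 and 228 CPM in SA:ANH and 242, 256 and 269 CPM in NS. The groups did not overlap, and the log2 fold change was -0.25 ± 0.03 (adjusted p = 5.19e-06). Vgf, another neuropeptide precursor, was at 102, 114 and 116 CPM in SA:ANH and 131, 142 and 151 CPM in NS (-0.35 ± 0.05, adjusted p = 7.68e-06). The synaptic organiser gene Nptx2 (-0.83), the scaffold gene Homer1 (-0.30) and Rasd1, a small GTPase gene inducible by glucocorticoids (-0.54), also fell, while Dusp6 (0.28), Plk2 (0.17), Per1 (0.39) and Arl4d (0.38) rose. Without SA:ANH libraries 1 and 2, 2 fell (Scg2 and Vgf) and 1 rose (Dusp6). Bdnf, the neurotrophin gene, had 16.0, 19.9 and 21.6 CPM in SA:ANH and 21.2, 23.2 and 26.3 CPM in NS. Its log2 fold change of -0.27 ± 0.09 did not pass (adjusted p = 0.0895).

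Some clock genes were higher in SA:ANH. Of 19 tested, 7 rose and 0 fell, where 2.54% of all genes rose, with a median log2 fold change of 0.16. Without SA:ANH libraries 1 and 2, 5 of 19 rose, where 0.539% of all genes rose. The 7 encode repressors and outputs of the clock. Dbp, an output transcription factor, had 144, 156 and 178 CPM in SA:ANH and 89.6, 100 and 107 CPM in NS, with a log2 fold change of 0.68 ± 0.05 (adjusted p = 7.89e-13). Ciart, a repressor of the clock's activators, had 32.6, 37.2 and 39.9 CPM in SA:ANH and 20.9, 22.9 and 25.2 CPM in NS, at 0.70 ± 0.08 (adjusted p = 1.96e-07). Neither gene's groups overlapped. The repressor genes Bhlhe40 (0.48), Nr1d1 (0.43), Per1 (0.39) and Cry2 (0.25) and the output gene Tef (0.33) rose as well. Per1 and Cry2 lost their calls without libraries 1 and 2, with adjusted p of 0.132 and 0.0581. The activator genes Arntl, at 43.3 to 58.9 CPM in SA:ANH and 46.0 to 58.3 CPM in NS, and Clock, at 9.78 to 13.7 CPM in SA:ANH and 10.5 to 14.2 CPM in NS, did not pass. By median Dbp stood at 156 CPM in SA:ANH, 132 in SA, 116 in ANH, 170 in RES and 100 in NS, and SA:ANH did not pass against RES (log2 fold change -0.12, adjusted p = 0.304). The labels give no time of day, and its part in these values was not tested.

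Genes known to be induced by glucocorticoids showed no common direction. Of 21 tested, 1 rose and 2 fell, where 2.54% of all genes rose and 3.1% fell. The median log2 fold change of the list was 0.01. Fkbp5, the co-chaperone of the glucocorticoid receptor, had 13.6, 17.0 and 21.7 CPM in SA:ANH and 16.6, 19.1 and 20.7 CPM in NS. The groups overlapped, and its log2 fold change of -0.12 ± 0.09 did not pass (adjusted p = 0.55). The kinase gene Sgk1 rose by 0.22, and the cell-cycle inhibitor gene Cdkn1a (-0.49) and the mitochondrial kinase gene Pdk4 (-0.67) fell. Of these 3 calls Cdkn1a alone was kept without SA:ANH libraries 1 and 2. No gene of the list of CRH, its receptors and steroid receptors passed (0 of 10 by edgeR, DESeq2 and limma, with 3 at an unadjusted p under 0.05).

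Red cell genes were higher in SA:ANH. Of 7 tested, 4 rose and 0 fell, with or without libraries 1 and 2, where 2.54% of all genes rose with them and 0.539% without. Hba-a1, an alpha globin gene, had 628, 640 and 724 CPM in SA:ANH and 348, 352 and 367 CPM in NS, and gave the smallest p among rises (log2 fold change 0.88 ± 0.03, adjusted p = 8.72e-21). Hbb-bs, a beta globin gene, had 600, 633 and 664 CPM in SA:ANH and 348, 365 and 379 CPM in NS (0.79 ± 0.03, adjusted p = 2.75e-20). Hbb-bt rose by 0.59 and Alas2, the first enzyme of haem synthesis in red cells, by 1.33, the largest rise among genes of at least 10 CPM. Hba-a1 and its neighbour copy, and Hbb-bs and Hbb-bt, are near-identical, so how reads were split within each pair is uncertain. SA and ANH had medians of 628 and 643 CPM for Hba-a1, RES had 521 CPM, and SA:ANH passed only against RES among these 3 (0.33, adjusted p = 1.29e-08). The summed red cell list was 2314 to 2465 CPM in SA:ANH and 1707 to 1787 CPM in NS. Globin transcripts are abundant in blood, and the part that the share of blood in each sample had in this result was not tested.

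**Figure D3:**
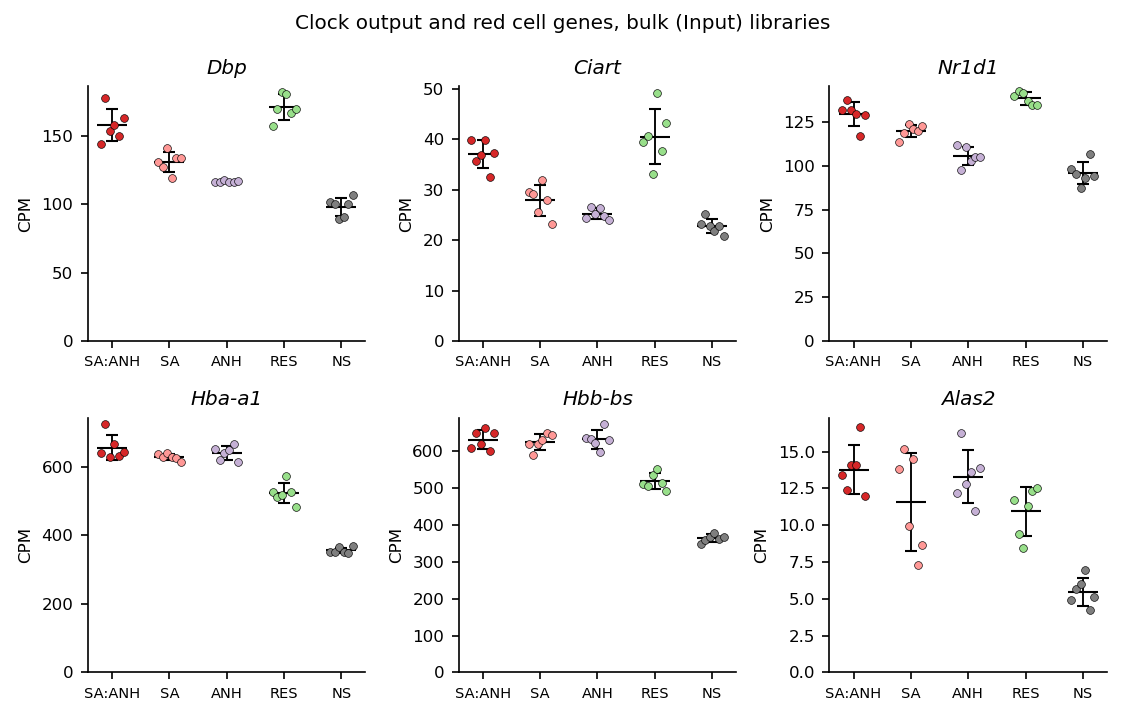
Level in CPM of 3 clock genes and 3 red cell genes in each Input library of the 5 groups, with the mean and SD of 6 libraries. SA:ANH exceeds NS without overlap in all 6 panels, while RES reaches or exceeds SA:ANH for Dbp, Ciart and Nr1d1 and SA and ANH reach it for Hba-a1 and Hbb-bs.

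Falls in SA:ANH included genes of fat cells and of the anterior pituitary, tissues that the mPFC does not contain. A list of 30 fat cell genes, written after these values were seen, gave 18 lower and 0 higher of 28 tested. Of all genes tested, 3.1% fell. Without SA:ANH libraries 1 and 2 it gave 17 lower of 29, where 0.565% of all genes fell. Its median log2 fold change was -2.13, also with the 7 genes at or under 3 counts in SA:ANH set at their bound. Those and other genes near 0 in SA:ANH passed the filter on low counts through the NS libraries, where they are high, so their direction was fixed by the filter, and the count and median are a description only. Ucp1, the uncoupling protein that makes heat in brown fat, had 0 counts in every SA:ANH library and 15, 17.4 and 19.3 CPM in the NS libraries. With 0 counts over the 6 SA:ANH libraries and 2377 over the 6 NS libraries it was at least 772-fold lower, taking 3 counts over the group as the floor. Fabp4, a fatty acid carrier of fat cells, had 0, 0 and 0.172 CPM in SA:ANH and 27.5, 28.3 and 29.8 CPM in NS. Pck1, an enzyme of glycerol supply in fat, had 0 counts over the SA:ANH libraries and 1189 over the NS libraries, at least 386-fold lower. Adipoq, the fat hormone adiponectin, was at 0, 0 and 0.138 CPM in SA:ANH and at 3.35, 3.49 and 4.47 CPM in NS.

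Genes of lipid metabolism with counts in both groups also fell. Scd1, a fatty acid desaturase, had 52.7, 65.8 and 74.3 CPM in SA:ANH and 141, 149 and 172 CPM in NS (log2 fold change -1.21 ± 0.08, adjusted p = 4.18e-14). Thrsp, a regulator of lipid synthesis, had 17.6, 19.6 and 20.9 CPM in SA:ANH and 45.8, 46.9 and 57.4 CPM in NS (-1.33 ± 0.09, adjusted p = 1.00e-13). Others of the fat list that fell were Agpat2 (-2.32) and Cidea (-1.56). Car3 (-5.74) and Cox8b (-5.30) had means in SA:ANH of only 0.319 and 0.224 CPM. These 2 passed the filter on low counts through the NS libraries, so their direction was fixed by the filter. Across the groups, Scd1 had medians of 65.8 CPM in SA:ANH, 64.9 in SA, 74.6 in ANH, 61.7 in RES and 149 in NS. The summed fat list was 385 to 422 CPM in SA:ANH and 629 to 694 CPM in NS.

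Gh, growth hormone, had 5.15, 7.01 and 8.01 CPM in SA:ANH and 41.3, 43.8 and 49.5 CPM in NS, a log2 fold change of -2.72 ± 0.23 (adjusted p = 1.21e-09). It also separated SA:ANH from the other subtypes, since its highest library was 0.637 CPM in SA, 0.264 in ANH and 0 in RES. Prolactin (Prl) had 0.258, 0.892 and 0.983 CPM in SA:ANH and 3.33, 4.26 and 6.82 CPM in NS, at a fitted log2 fold change of -2.59. Cga, the shared alpha subunit of pituitary hormones, had 3 counts over the SA:ANH libraries and 203 over the NS libraries, a ratio of NS over SA:ANH of 66.0 (95% counting interval 22.3 to 323). The pituitary and antibody lists were also written after these values were seen. Genes low in SA:ANH and near 0 in the other subtypes, such as Prl and Cga, passed the filter on low counts through the NS libraries. Their direction was fixed by the filter, so the counts of both lists are a description only. Of 4 pituitary genes tested 3 fell, where 3.1% of all genes fell. Of 5 antibody genes tested 3 fell, among them Igkc at 0 to 0.87 CPM in SA:ANH and 2.82 to 4.90 CPM in NS, and 2 of 7 fell without SA:ANH libraries 1 and 2. Another member had a log2 fold change of 0.37 and did not pass, and the summed antibody list overlapped, at 16.6 to 23.4 CPM in SA:ANH and 19.4 to 25.5 CPM in NS. Lyz2, lysozyme of macrophages, also fell (12.7, 15 and 18.4 CPM in SA:ANH, and 24.6, 27.7 and 29.2 CPM in NS). All 6 NS libraries had counts of Ucp1, Fabp4, Gh, Prl and Cga, and how evenly differed between genes. The coefficient of variation of Fabp4 over the NS libraries was 2.99%, where counting error alone gives 3.92%, that of Gh was 6.3%, where counting error gives 3.13%, that of Prl 29.5%, where counting error gives 9.62%, and that of Cga 26.2%, where counting error gives 17.2%. Intervals and floors cover counting error only. What put this RNA in the NS libraries was not tested.

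**Figure D4:**
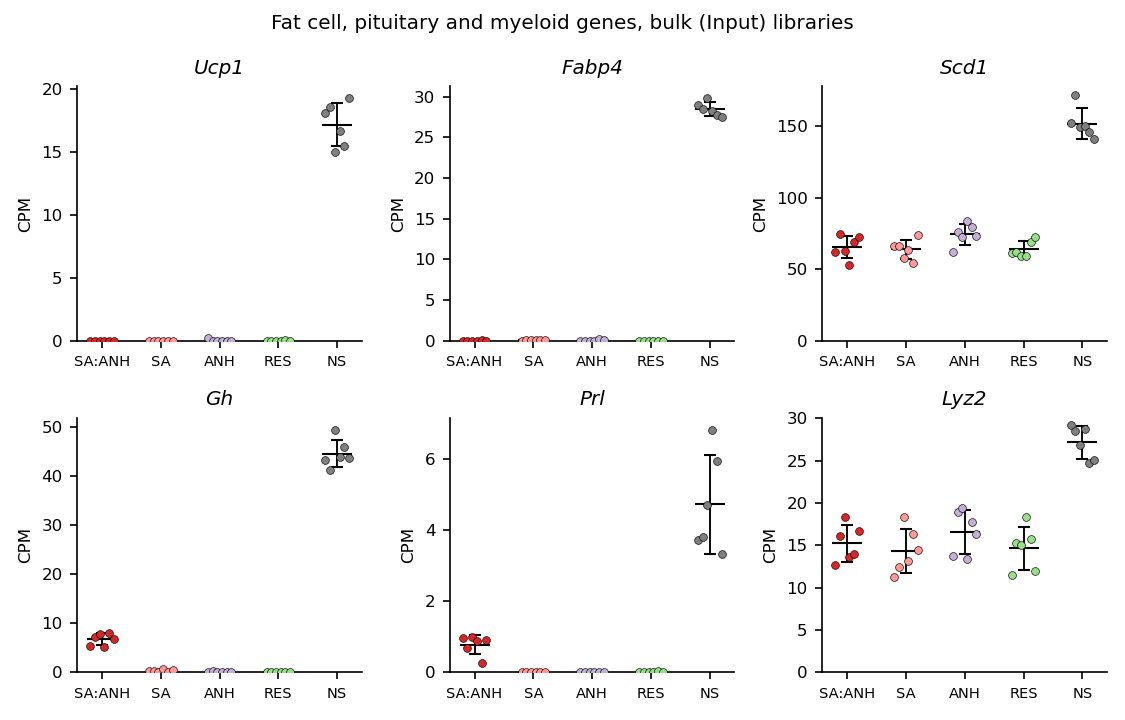
Level in CPM of fat cell genes (Ucp1, Fabp4, Scd1), pituitary genes (Gh, Prl) and the macrophage gene Lyz2 in each Input library of the 5 groups, with the mean and SD of 6 libraries. For Ucp1 and Fabp4 only NS libraries lie clearly above 0, and for Gh SA:ANH libraries (5.15 to 8.01 CPM) lie between NS (41.3 to 49.5 CPM) and the other subtypes (0 to 0.637 CPM).

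Transcripts encoded by the mitochondrial genome were lower in SA:ANH. Of 15 tested, 9 fell and 0 rose, where 3.1% of all genes fell, and all 15 had a log2 fold change below 0 (median -0.34). The fall was shared with RES, where 8 of 15 fell against the same NS libraries (median -0.31), as did 1.27% of all genes. SA:ANH against RES gave 0 calls in the list (median -0.03). Against NS, 0 fell in SA (median -0.08) and 1 in ANH (median -0.18). The complex I subunit gene mt-Nd6 had 30.4 and 31.5 CPM in SA:ANH libraries 1 and 2, 37.2 to 53.4 CPM in the other 4, and 56.4 to 72.7 CPM in NS (log2 fold change -0.68 ± 0.13, adjusted p = 0.00186). The ATP synthase subunit gene mt-Atp8 fell by 0.74, mt-Nd5 by 0.33 and the large rRNA gene mt-Rnr2 by 0.34, while the oxidase gene mt-Co1 did not pass (-0.06, adjusted p = 0.656). Without SA:ANH libraries 1 and 2, none of the 15 passed (0 calls; mt-Nd6 then had -0.52, adjusted p = 0.0548). The share of counts in mitochondrial genes was 1.35% to 2.0% in SA:ANH and 1.8% to 2.1% in NS (two-sided exact permutation test, p = 0.0303, adjusted 0.0505). Of nuclear genes of the respiratory chain 0 of 74 rose and 2 fell (0 without SA:ANH libraries 1 and 2), with a median of -0.03.

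Some cytosolic ribosomal protein genes were higher in SA:ANH. Of 79 tested, 15 rose and 0 fell, where 2.54% of all genes rose, at a median log2 fold change of 0.06. Rps6 had 194, 215 and 263 CPM in SA:ANH and 171, 192 and 201 CPM in NS (0.26, adjusted p = 0.00872), and its highest values were in SA:ANH libraries 1 and 2. Rpl7a rose by 0.29 and Rpl3 by 0.39. Rpl10a, the gene whose product carries the GFP tag, had 82.5, 88.6 and 116 CPM in SA:ANH and 70.3, 79.6 and 84.3 CPM in NS (0.22 ± 0.07, adjusted p = 0.0349), in which reads of the endogenous gene and of the transgene cannot be told apart. None of the 79 passed without SA:ANH libraries 1 and 2. Processed pseudogenes, whose reads may be shared with their source genes, took 1.39% to 1.69% of counts in SA:ANH and 1.69% to 1.96% in NS (two-sided exact permutation test, p = 0.00216, adjusted 0.00541). With processed pseudogenes left out, the comparison gave 541 calls, 288 higher and 253 lower.

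Markers of glia and vessels were counted by list, where 5.65% of all genes passed. Of 22 mature oligodendrocyte genes 4 rose and 1 fell (median 0.08). Mbp, myelin basic protein, had 1765, 1841 and 1911 CPM in SA:ANH and 1652, 1709 and 1739 CPM in NS, with no overlap and a log2 fold change of 0.11 ± 0.02 (adjusted p = 0.000204). Cnp (0.18), Trf (0.16) and Opalin (0.22) rose and the lipid carrier gene Apod fell (-0.24), and Cnp and Opalin lost their calls without libraries 1 and 2. Against the other subtypes genes of this list were lower in SA:ANH: 7 of 22 fell against SA, 21 against ANH and 14 against RES, and 0 rose in each. Of all genes, 1.96% fell against SA, 0.947% against ANH and 0.374% against RES. The other subtypes themselves stood above NS in this list, with 10 of 22 higher in SA, 19 in ANH and 16 in RES. Of all genes, 1.23%, 1.57% and 1.96% were higher than NS in SA, ANH and RES. In SA 1 of the 22 was lower than NS. Mbp had medians of 1841 CPM in SA:ANH, 2110 in SA, 2863 in ANH, 2460 in RES and 1709 in NS. Precursor markers gave 0 calls of 14 by edgeR, DESeq2 and limma, and 0 had an unadjusted p under 0.05.

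Of 20 astrocyte genes 3 fell and 0 rose. Gfap, the intermediate filament of reactive astrocytes, had 67.0, 73.9 and 85.4 CPM in SA:ANH and 100, 107 and 117 CPM in NS, with no overlap (log2 fold change -0.52 ± 0.05, adjusted p = 5.84e-09). The glutamate transporter gene Slc1a2 fell by 0.16 and S100b by 0.19, and only Gfap was still called without libraries 1 and 2. Among 22 microglia and macrophage genes Lyz2 (-0.83) and the complement gene C1qa (-0.25) fell, and C1qa lost its call without libraries 1 and 2 (adjusted p = 0.0577). Of 24 vascular genes 1 rose, Ly6c1 (0.24), which also lost its call (adjusted p = 0.0961). Of 20 meningeal genes 1 fell: Ptgds, the prostaglandin D synthase of the meninges and oligodendrocytes, had 486, 499 and 536 CPM in SA:ANH and 611, 652 and 676 CPM in NS (-0.37 ± 0.03, adjusted p = 1.99e-10). The summed meningeal list was 645 to 709 CPM in SA:ANH and 805 to 871 CPM in NS, and most of that sum was Ptgds. The median log2 fold change of the list was -0.33, with 1 of 20 above 0, and how much meninges each sample held was not tested. Choroid plexus and ependymal genes gave 0 calls of 13 by edgeR and 1 by DESeq2, with 3 at an unadjusted p under 0.05. Interferon-induced genes gave 0 of 21 by either tool, with 4 at an unadjusted p under 0.05.

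Neuronal identity genes were also counted by list. Excitatory markers gave 1 higher of 16 (Camk2b, 0.13), inhibitory markers 1 higher and 1 lower of 24 (Lamp5, 0.14, and Sst), upper-layer markers 1 and 1 of 18 (Lamp5 and Penk), and layer 6 markers 2 higher and 1 lower of 19, where 5.65% of all genes passed. Of the excitatory and layer 6 markers 0 were called without SA:ANH libraries 1 and 2, and Lamp5 lost its call, while Sst and Penk were still called. Of 16 markers of layer 5 neurons that project out of the telencephalon 2 fell. Bcl11b, the transcription factor that specifies these neurons, had 40.2, 48.8 and 52.0 CPM in SA:ANH and 55.6, 62.6 and 67.8 CPM in NS (-0.38 ± 0.08, adjusted p = 0.00216), and the adhesion gene Cdh13 fell by 0.14 but lost its call without libraries 1 and 2 (adjusted p = 0.146). Of 18 striatal markers, which report tissue below the cortex, 2 fell (Penk and Drd2), 1 of 9 claustrum markers fell (Nnat, -0.39), and 0 of 6 olfactory markers passed by edgeR or DESeq2, with 1 at an unadjusted p under 0.05. Bcl11b is also high in striatum, and the share of striatal tissue was not tested. The summed striatal list was 530 to 569 CPM in SA:ANH and 526 to 590 CPM in NS.

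Of 17 neuropeptide genes 3 fell and 0 rose, where 2.54% of all genes rose and 3.1% fell. Somatostatin (Sst) had 446, 467 and 527 CPM in SA:ANH and 508, 531 and 563 CPM in NS, so that the groups overlapped, with a log2 fold change of -0.17 ± 0.04 (adjusted p = 0.00398). The enkephalin precursor gene Penk fell by 0.24 and cortistatin (Cort) by 0.46, and Cort lost its call without libraries 1 and 2. Receptor and channel genes were counted by list as well, against the same shares of all genes, and lists with 1 call are described by that gene only. Grm2, a presynaptic metabotropic glutamate receptor, had 134, 140 and 155 CPM in SA:ANH and 93.7, 112 and 136 CPM in NS (0.33 ± 0.06, adjusted p = 0.000359), 1 of 7 in its list. The extrasynaptic GABA receptor subunit gene Gabrd rose by 0.23 (1 of 15), the potassium channel gene Kcnh3 by 0.19 (1 of 44 voltage-gated channels), the muscarinic receptor gene Chrm1 by 0.14, and the peptide receptor genes Vipr1 (0.47), Adcyap1r1 (0.26) and Cckbr (0.14) rose (3 of 23). The dopamine receptor gene Drd2 fell by 1.24 at 0.692 to 1.81 CPM in SA:ANH and 0.672 to 3.56 CPM in NS. Of 36 glutamate receptor and scaffold genes Cacng3 rose (0.18) and Grin2b (-0.21) and Homer1 fell. Grm2 was the only one of these receptor and channel genes that was called without SA:ANH libraries 1 and 2.

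Of 36 genes of synaptic vesicle release 5 rose and 1 fell, where 2.54% of all genes rose and 3.1% fell. Of these calls, the rises of Stx1a and Napa were the only 2 found without SA:ANH libraries 1 and 2. Stx1a, the syntaxin of the fusion complex, had 481, 512 and 532 CPM in SA:ANH and 434, 442 and 474 CPM in NS, with no overlap (0.19 ± 0.03, adjusted p = 0.000155). Napa (0.15) and Vamp2 (0.08) were also among those that rose, and Rab3c fell (-0.18). Cholesterol synthesis gave 3 higher and 0 lower of 22, among them Mvd (0.33) and Fdft1 (0.13), of which Fdft1 lost its call without libraries 1 and 2. Among 13 long noncoding RNAs 3 rose. Snhg11 had 392, 403 and 420 CPM in SA:ANH and 292, 314 and 320 CPM in NS (0.37 ± 0.03, adjusted p = 1.32e-11), Miat rose by 0.57 and the imprinted Meg3 by 0.24, and all 3 rose without libraries 1 and 2, while Malat1 did not pass (0.03). Of 28 chaperone genes Calr (-0.13) and Hsp90b1 (-0.14) fell (Calr alone without libraries 1 and 2), of 31 proteasome genes Psmc3 rose (0.17), and of 48 histone modifiers 0 passed by edgeR and 2 by DESeq2, with 9 at an unadjusted p under 0.05. The 4 genes tested that check the sex of the tissue gave 0 calls by either tool and 0 at an unadjusted p under 0.05. Genes outside these lists among the 12 largest rises or falls were Mical1 (0.77), an actin oxidase gene, the purine synthesis gene Pfas (0.65), the zinc receptor gene Gpr39 (-0.76), the aldolase retrogene Aldoart1 (-1.09), whose reads may be shared with its source gene, and the mitochondrial tRNA gene mt-Ts1 (-0.92). Of these 5, Aldoart1 alone was called without libraries 1 and 2.

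Against the other subtypes, the genes of smallest p included Gh, Arc, Mbp, Dusp1 and Gria2 for SA, the oligodendrocyte genes Mbp, Trf and Mobp with Gh for ANH, and Mbp, Ptgds, Snhg11, Gh and Arc for RES. Gria2, an AMPA receptor subunit, was 0.38 higher in SA:ANH than in SA on the log2 scale (adjusted p = 1.03e-07), and its difference from NS did not pass (0.06, adjusted p = 0.447). Ptgds ran in opposite directions, at -0.26 against SA (adjusted p = 2.64e-06), 0.29 against ANH (adjusted p = 1.35e-07), 0.57 against RES (adjusted p = 4.49e-15) and -0.37 against NS.

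Immediate early genes read differently in the pulldown of the same groups. In IP libraries SA:ANH against NS gave 3288 calls of 16670 genes tested (19.7%; 11.3% higher and 8.45% lower), and of 18 immediate early genes 1 rose and 8 fell, with a median log2 fold change of -0.38. A test of the difference between fractions over all 60 libraries gave 2880 calls of 18937 genes (15.2%; 8.06% more positive in Input and 7.14% less positive). The difference was more positive in Input for 12 of the 19 immediate early genes and less positive for 1. For Fos the log2 fold change was 0.97 in Input and -0.72 in IP, a difference of 1.72 (adjusted p = 1.41e-12). For Npas4 it was 1.03 in Input and -1.23 in IP, a difference of 2.28 (adjusted p = 7.39e-12). Arc was at 1.06 in Input and -0.11 in IP (difference 1.20, adjusted p = 8.14e-11), and the IP value did not pass (adjusted p = 0.522). Clock genes were mixed. Dbp rose in both fractions, at 0.68 in Input and 0.90 in IP, as did Ciart, at 0.70 in Input and 0.92 in IP. Of 19 clock genes 7 rose and 1 fell in IP, where 11.3% of all genes rose and 8.45% fell. The difference was more positive in Input for 3 of the 19 and less positive for 1. It was 0.36 for the output gene Tef, 0.48 for Cry2, 0.32 for Bhlhe40 and -0.2 for Dbp.

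Other groups also read differently in the pulldown. The mitochondrially encoded list had a median of -0.34 in Input and 0.54 in IP, with 11 of 15 higher in SA:ANH than NS in IP, and the difference between fractions passed for 14. Mitochondrial genes held only 0.0241% to 0.0468% of counts in SA:ANH IP libraries and 0.0177% to 0.0237% in NS IP libraries. In Input they held 1.35% to 2.0% in SA:ANH and 1.8% to 2.1% in NS. The source of this trace RNA in the pulldown was not tested. Ribosomal protein genes had a median of 0.06 in Input and 0.67 in IP, where all 79 rose. Mature oligodendrocyte genes had 0.08 in Input and -0.80 in IP, and layer 5 markers -0.02 in Input and -0.57 in IP, where 14 of 16 fell. The 5 genes of smallest p for the difference were Igfbp4, Mbp, Nrip3, Trbc2 and Cck. Igfbp4, a binding protein of insulin-like growth factors, had -0.05 in Input and -0.97 in IP, and Cck, cholecystokinin, 0.01 in Input and 0.75 in IP. The fat cell RNA of the NS Input libraries was near 0 in NS IP libraries, at 0 to 0.883 CPM for Ucp1 and 0.173 to 0.428 CPM for Fabp4 on each library's total, while Gh was at 0 to 0.7 CPM in SA:ANH IP and 1.97 to 3.8 CPM in NS IP libraries.

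**Figure D5:**
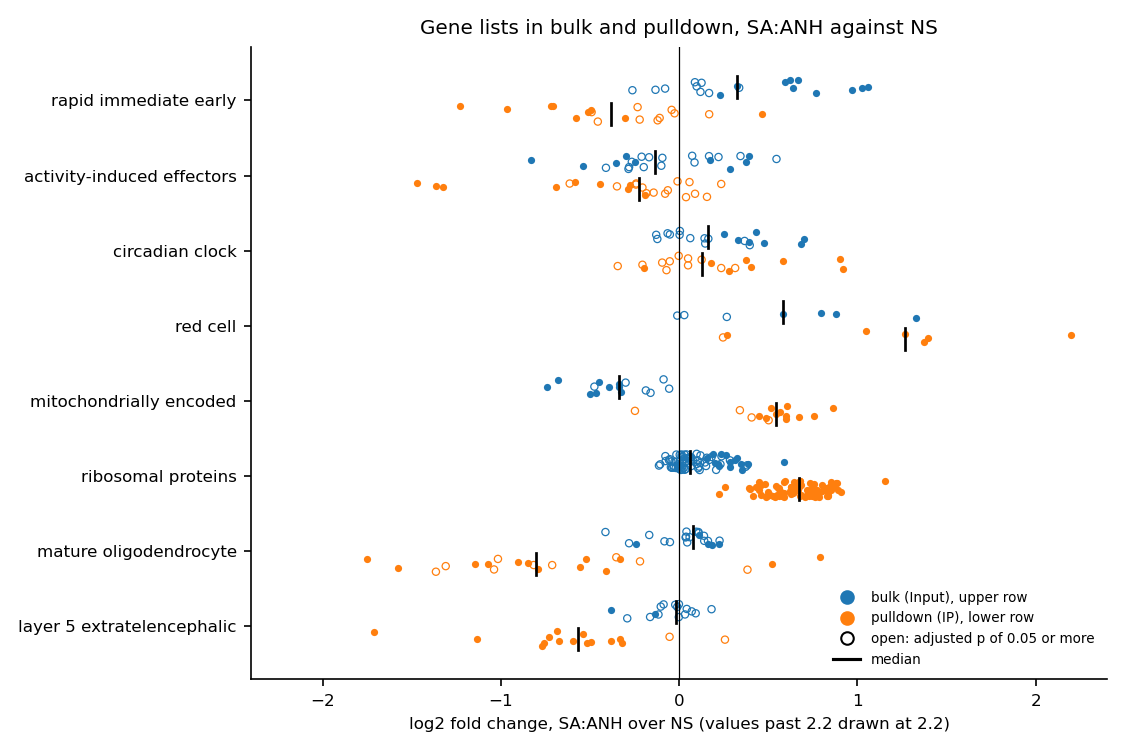
Log2 fold change, SA:ANH over NS, of each member of 8 gene lists in bulk (Input, blue, upper row) and pulldown (IP, orange, lower row) libraries; filled points have an adjusted p under 0.05 and black bars are list medians. The immediate early list has a median of 0.33 in Input and -0.38 in IP and the mitochondrially encoded list -0.34 in Input and 0.54 in IP. Mitochondrially encoded genes held at most 0.0468% of counts in these IP libraries.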

How the data were processed

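The authors deposited expected counts per gene for 60 mouse mPFC libraries, and 88.4% of all values, zeros included, were whole within 1e-06. Per the submitters' processing notes, reads were handled with Trimmomatic 0.32, TopHat2 2.0.13 and Bowtie2 2.2.3 on mm10; no source used here names the counting tool. Gene lengths in the deposited table were not used in any test. Expected counts were rounded to whole numbers. The 30 Input libraries of 5 groups were fitted together with edgeR 4.0.16 in R 4.3.3 (TMM factors, filterByExpr with a minimum count of 10, quasi-likelihood test, Benjamini-Hochberg adjustment over all genes, threshold 0.05). CPM values used TMM library sizes. IP libraries were fitted alike, and the difference between fractions was tested over all 60 libraries and 10 groups. Library measures were compared by two-sided exact permutation tests. DESeq2 1.42.0 and limma 3.58.1 were alternatives, with other scaling, filters, a replicate block and left-out libraries. The scripts were tested on simulated data. No 2 libraries of the 30 pairs compared within SA:ANH and NS agreed within sampling noise (chi-square per degree of freedom 7.316 to 16.417). This cannot tell separate mice from separate preparations of 1 sample, since preparation also adds spread.

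Gene lists (39, with 893 symbols, 888 in the table and 866 tested) and members were chosen with earlier results of these data known, and 3 further lists (fat cell, pituitary and antibody genes) were added after values were seen. Genes were named by a rule: 12 rises and 12 falls of greatest size among called genes of at least 10 CPM in the higher group, the 6 smallest p in each direction, up to 4 members of smallest p per list, and the 5 smallest p in each other contrast, leaving out predicted genes and pseudogenes; Fos, Fkbp5, Bdnf and Rpl10a were always named. Further list members were named after their values were seen. Not every gene the rule selects is described, and some are not reported here. Promoters came from RefSeq (GRCm38.p6), matched by symbol.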

Additional observations from a re-analysis of the deposited data

Results flagged for a closer look

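For 63 of the 120 genes followed, the log2 fold change of SA:ANH over NS in bulk Input libraries differed from that in IP libraries (edgeR interaction test over all 60 libraries, adjusted p under 0.05). Over all genes tested 2880 of 18937 differed (15.2%). Many of the 120 were chosen by the size or p of their change, and 5 by this difference, so their count is a description only. Values below are Input minus IP on the log2 scale. Among immediate early genes the difference was 1.2 for Arc, 1.72 for Fos, 2.28 for Npas4, 0.74 for Junb, 1.1 for Dusp1, 0.48 for Nr4a1, 1.11 for Btg2, 0.69 for Ier2, 0.93 for Egr4, 0.48 for Gadd45g, 0.86 for Egr1 and 0.63 for Jun. Among activity-induced genes it was 0.59 for Dusp6, -0.26 for Scg2, 0.37 for Vgf, 0.28 for Plk2 and 0.81 for Rasd1.

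Clock genes gave -0.2 for Dbp, 0.32 for Bhlhe40, 0.36 for Tef and 0.48 for Cry2. Glucocorticoid-induced genes gave 0.63 for Fkbp5 and -0.56 for Cdkn1a, and globin genes -0.47 for Hba-a1 and -0.57 for Hbb-bs. Fat cell genes gave -7.4 for Fabp4, -2.6 for Agpat2, -0.92 for Cidea and -0.64 for Scd1, where Fabp4 was near 0 in IP libraries of both groups, so its fitted value depends on the prior count. Mitochondrially encoded genes were less positive in Input, at -1.07 for mt-Nd6, -1.21 for mt-Atp8, -0.83 for mt-Nd5, -1.18 for mt-Rnr2 and -0.48 for mt-Co1. They held at most 0.0468% of counts in the IP libraries of both groups. Rps6 gave -0.3.

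Myelin and other glial genes were mostly more positive in Input, at 0.93 for Mbp, 0.54 for Cnp, 1.77 for Trf, 0.64 for Apod, 0.72 for Mobp and 1.42 for Gfap, with -0.34 for Slc1a2. Neuronal genes gave 0.78 for Bcl11b, 0.27 for Cdh13, 0.49 for Camk2b, 0.29 for Lamp5, 0.27 for Slc17a7, 0.63 for Gad1, -0.59 for Sst, -0.72 for Cck, 0.19 for Cckbr, 0.21 for Gria2 and 0.23 for Chrm1. Vesicle genes gave 0.29 for Vamp2, 0.12 for Napa and 0.29 for Rab3c. Noncoding RNAs gave -0.38 for Snhg11, -0.28 for Meg3 and -1.03 for Malat1. Other genes were Igfbp4 (0.95), Nrip3 (1.22), Trbc2 (-1.25) and Calr (0.24).

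In 17 of 240 sets of 6 libraries (120 genes in SA:ANH and in NS), 1 library lay far from the other 5, by a gap above Dixon's 95% critical value; chance flags about 1 in 20 sets. In SA:ANH these were library 1 for Gria2 (195 CPM) and Ly6c1 (71.7 CPM), library 2 for Ptgds (536 CPM) and Rpl10a (116 CPM), library 5 for Fabp4 (0.172 CPM) and Cga (0.129 CPM), and library 6 for Arntl (58.9 CPM). In NS they were library 1 for Egr1 (246 CPM), library 2 for Scd1 (172 CPM), library 3 for Nptx2 (7.09 CPM), Per1 (16.8 CPM) and Slc1a2 (522 CPM), library 4 for Thrsp (57.4 CPM) and Aldoart1 (14.2 CPM), library 5 for Bhlhe40 (113 CPM) and Snhg11 (292 CPM), and library 6 for Cdkn1a (43.9 CPM).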

How the results depend on the processing

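SA:ANH against NS in Input gave 1026 calls in the fit reported. RLE factors gave 1029, no filter on low counts 769, a minimum count of 50 gave 926, DESeq2 gave 1333 and limma with quality weights 1023. Fitting only the 12 libraries compared gave 741, of which 300 were higher, more than 1.5 times under the 462 of the fit of 30. Leaving out 1 library at a time gave 529 to 1052 calls, 246 to 537 higher and 263 to 587 lower. Of 2 alternatives chosen after seeing the data, leaving out processed pseudogenes gave 541 calls (288 higher, 253 lower), and leaving out SA:ANH libraries 1 and 2 gave 207 (101 higher, 106 lower). Against ANH, no filter on low counts gave 80 higher, against 126 with it. A replicate block gave 1226 calls against NS, 2857 for the difference between fractions (2880 without it) and 109 lower against RES (68 without it). Deviations of same-numbered SA:ANH and NS libraries correlated at -0.006 to 0.043, and 2 of 6 matched their own number best. Same-numbered Input and IP libraries correlated at -0.017 to 0.036 in SA:ANH and -0.013 to 0.022 in NS. The mitochondrial share of SA:ANH Input libraries still ran with the number, from 1.39% and 1.35% in libraries 1 and 2 to 2.0% in library 6. This was not particular to SA:ANH. In SA the share was 1.74% and 1.57% in libraries 1 and 2 and 2.13% in library 6. In ANH it was 1.56% and 1.55% in libraries 1 and 2 and 2.11% in library 6. In RES it was 1.52% and 1.59% in libraries 1 and 2 and 1.65% in library 6. In NS it was 1.87% in library 1 and 1.8% in library 6. What the number marks was not tested. Without SA:ANH libraries 1 and 2, 45 of the 120 genes followed lost their call and 75 kept their side of the threshold. Changes of direction were not counted for genes called in neither fit. No alternative reversed a called gene. The causes of these shifts were not tested. Depth limits genes near the filter: fold changes of genes at 0 in SA:ANH are bounds.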
